A study of Rattus norvegicus with 10 samples.

Results

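Cdkn1a, Mdm2, Gadd45a, Rprm, Bax, Bcl2, Bcl2l1 and Mcl1, which are p53 targets or regulators of apoptosis, were examined in rat mammary gland on 10 oligonucleotide arrays. Probe sets were taken wherever the platform annotation gave 1 of these symbols alone, which yielded 12 of 15866 probe sets and 7 of 10411 named genes. Bax had no probe set of its own, since its only one was annotated jointly to LOC681314 and Bax, so no value is given for Bax and that probe set is described apart. RNA came from female Sprague-Dawley rats at postnatal day 50 that had been fed 1 of 3 purified diets, named SPI, GEN and CAS in the labels. There were 4 SPI arrays (replicates 2, 3, 4 and 5), 3 GEN arrays (replicates 1, 3 and 5) and 3 CAS arrays (replicates 1, 2 and 3), each hybridised with RNA pooled from 2 animals of 1 diet. GEN is genistein, a soy isoflavone, per the title of the series. The labels do not spell out SPI and CAS. From knowledge of the study, SPI stands for soy protein isolate and CAS for casein; CAS serves here as the diet against which the others are set. The series asks which mammary genes respond to these diets. The labels mention several cRNA targets made from each pool without linking arrays to pools, so p-values measure only the spread between these arrays, which may be in part technical.

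p53 is a transcription factor that is stabilised after DNA damage and other stress. It raises transcription of Cdkn1a and Gadd45a, which slow the cell cycle, of Bax, which permeabilises mitochondria, and of Mdm2, the ubiquitin ligase that degrades p53 in turn. Bcl2, Bcl2l1 and Mcl1 code for anti-apoptotic proteins that restrain Bax and Bak1. In the mouse mammary gland, members of this family take part in the removal of milk-producing cells after weaning, and the epithelium depends on Mcl1 for its survival.

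The stretch around a gene's start shows whether p53 has a recognisable sequence there. RefSeq promoter windows on the GRCr8 build, which run from 250 bases before to 50 bases after an annotated start, were found for 7 of the 8 genes, in 10 windows of 300 bases because Bcl2l1 had 4. They were searched on both strands for the p53 response element, which is made of a pair of half-sites of 10 bases, here joined without a spacer. The Cdkn1a window (chr20:7150682-7150981, plus strand) held a stretch that differed from the 20-base consensus at 1 position, 201 to 182 bases before the start, printed in capitals. Such a match, with at most 1 mismatch, occurred in 24 of 33469 windows of the same length (0.0717%). The Gadd45a window (chr4:97486750-97487049, minus strand) held 1 exact half-site in capitals, 48 to 39 bases before the start; at least 1 half-site was found in 7.98% of all windows. The Rprm window (chr3:58949986-58950285, minus strand) is shown because Rprm had the largest difference between diets among the tested members. It held no half-site and 25 CpG dinucleotides, against a median of 7 over all windows. Such a CpG count was not particular to Rprm. The Mdm2 window held 31, 1 Bcl2l1 window 27 and the Mcl1 window 25, while the remaining member windows held 2 to 17. The other 7 windows (Mdm2, Bcl2, Mcl1 and Bcl2l1) held no half-site. These matches are descriptions of letters and not of binding, and elements outside the windows were not searched.
Cdkn1a: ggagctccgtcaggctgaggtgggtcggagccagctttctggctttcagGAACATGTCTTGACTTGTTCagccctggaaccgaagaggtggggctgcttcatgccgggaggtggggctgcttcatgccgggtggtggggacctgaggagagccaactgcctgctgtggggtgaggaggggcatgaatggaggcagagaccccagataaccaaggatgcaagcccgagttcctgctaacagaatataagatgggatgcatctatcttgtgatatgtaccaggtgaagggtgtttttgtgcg
Gadd45a: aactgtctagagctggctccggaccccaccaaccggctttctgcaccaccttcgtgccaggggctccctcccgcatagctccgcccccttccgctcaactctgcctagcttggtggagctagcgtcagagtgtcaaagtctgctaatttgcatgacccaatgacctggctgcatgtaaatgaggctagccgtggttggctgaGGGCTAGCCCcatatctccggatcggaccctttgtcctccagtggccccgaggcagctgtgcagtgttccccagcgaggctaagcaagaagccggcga
Rprm: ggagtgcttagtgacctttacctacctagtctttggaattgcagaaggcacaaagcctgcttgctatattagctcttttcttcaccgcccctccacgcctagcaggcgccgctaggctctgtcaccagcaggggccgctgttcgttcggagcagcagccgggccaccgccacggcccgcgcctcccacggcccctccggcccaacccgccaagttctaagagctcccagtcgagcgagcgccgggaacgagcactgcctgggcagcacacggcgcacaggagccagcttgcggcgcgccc

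Values are MAS5 signals, which are intensities on a linear scale. Differences are on the log2 scale with standard errors (SE) from 1 limma fit over all 10 arrays, with 95% intervals where given. Adjustment of p-values ran over all 9520 probe sets tested. A probe set was tested if it was not among the lowest 40% in mean log2 signal, which put the floor at a geometric mean signal of 162. This held for 8 of the 12 member probe sets, covering 6 genes. The only Bcl2 probe set, 1 of 2 for Mdm2 and 2 of 3 for Bcl2l1 were dimmer and are given as values with no test.

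The arrays had median signals of 222.8 to 256.7. The labels name mammary epithelial cells as the source and mammary gland in the labelling protocol, while the design text of the series names mammary gland and, in the same sentence, colon; mammary gland is taken here, and whether colon RNA was included was not tested. Markers of several cell types were measured: the mean log2 signal was 9.19 to 10.85 for 10 luminal epithelial genes and 10.50 to 11.08 for 4 adipocyte genes. In such bulk RNA, fewer cells of a type and less RNA per cell cannot be told apart. The mean of 4 skeletal muscle genes was 10.37 on CAS 1 and 7.36 to 8.11 on the other 9 arrays. The beta-actin 3'/5' signal ratio, which is higher when RNA is more degraded, was 7.77 on SPI 4 and 2.83 to 5.22 on the others. Luminal genes lay lower on SPI (9.19 to 10.39) than on GEN (10.41 to 10.85), and on CAS they lay between 9.79 and 10.56. SPI and GEN were only narrowly apart, with SPI 2 at 10.39 and GEN 3 at 10.41, and the lowest value was that of SPI 4. Of single tested probe sets, 4.37% were apart in this direction for SPI minus GEN.

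No member passed the adjusted threshold in any comparison of diets. Over all 9520 probe sets, limma also called 0 (0%) in each comparison at an adjusted p under 0.05. Rprm was among the 8 tested only through its GEN and CAS arrays, since its mean log2 signal was 6.88 on SPI, 7.88 on GEN and 8.21 on CAS and the lowest mean tested was that of a signal of 162. A probe set that passes only through the diets where it is high has to differ, so counts that include Rprm are given as a description. At an unadjusted p under 0.05, 2 of 8 member probe sets had a difference between SPI and CAS, Rprm lower and the brighter Cdkn1a probe set higher, beside 4.82% of all probe sets, and Cdkn1a alone remains when Rprm is set aside. Between GEN and CAS there were 0 of 8 (background 5.89%), and between SPI and GEN 1 of 8, which was Rprm (background 7.95%). The diets did not overlap for 1 of 8 in SPI minus CAS (background 4.6%), 0 of 8 in GEN minus CAS (11.1%) and 1 of 8 in SPI minus GEN (8.5%), Rprm in both cases. SPI and GEN are both set against the same CAS arrays. The median log2 difference of the 8 was -0.0090 for SPI minus CAS, 0.26 for GEN minus CAS and -0.31 for SPI minus GEN, and over all probe sets it was -0.012, -0.013 and -0.0043.

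**Figure D1:**
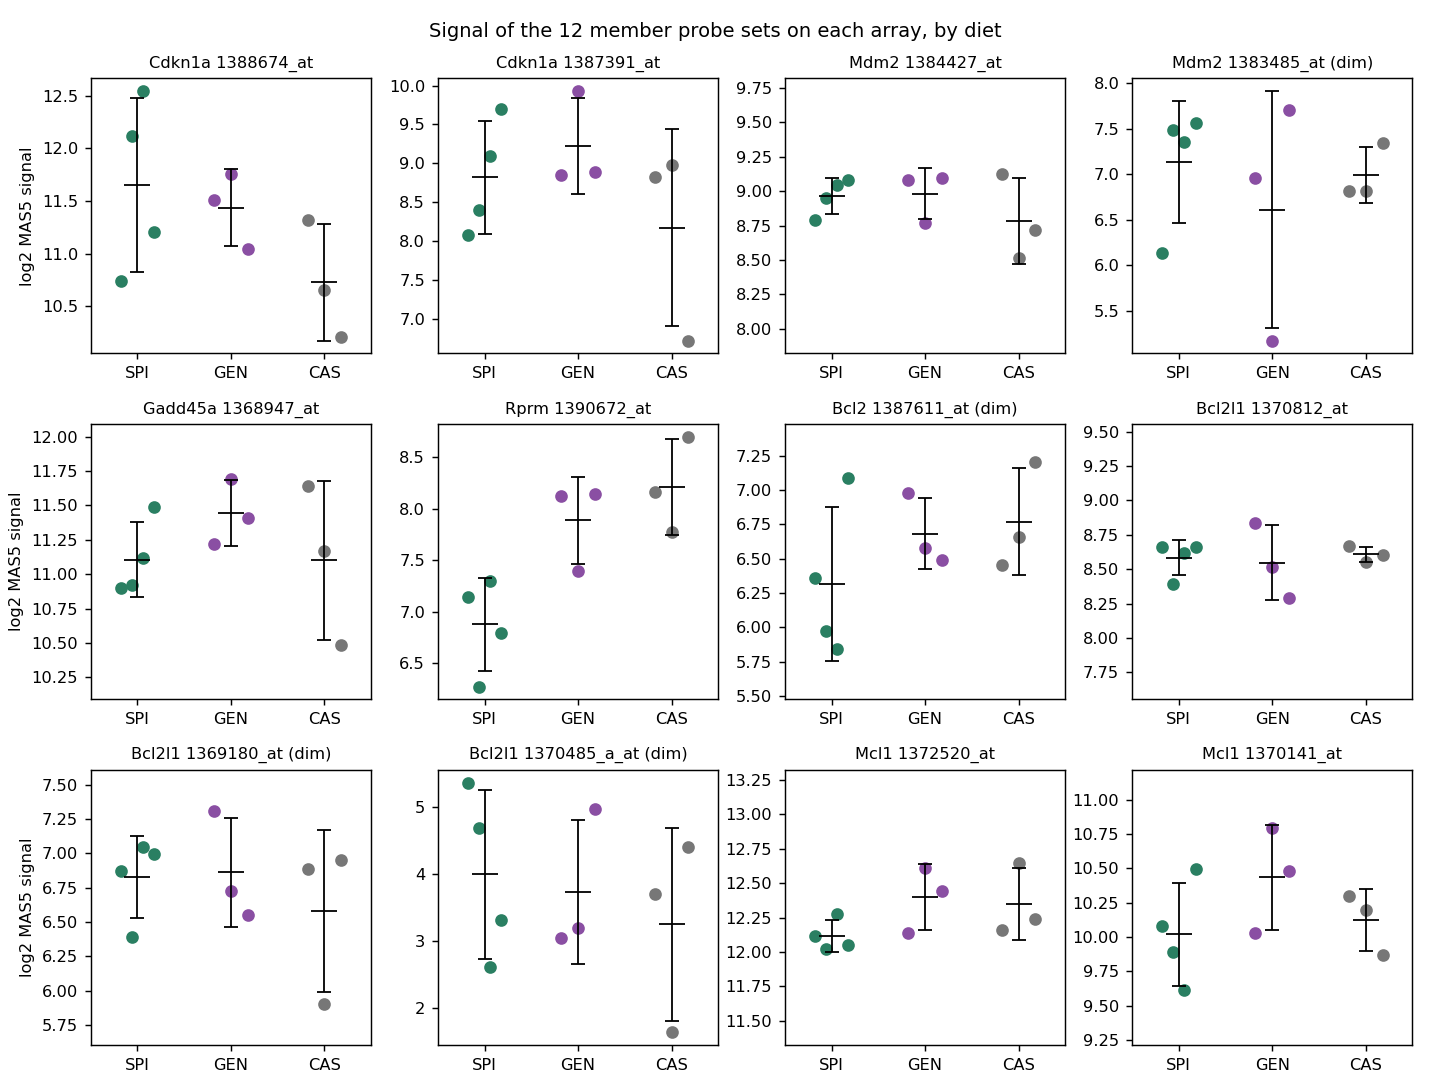
Log2 MAS5 signal (vertical axes, each panel with its own scale) of the 12 member probe sets on the SPI, GEN and CAS arrays; points are arrays, and bars are the mean and SD over 4 SPI, 3 GEN and 3 CAS arrays, with untested probe sets marked as dim. The 4 SPI arrays lie below all GEN and CAS arrays for Rprm, and CAS 3 lies lowest for both Cdkn1a probe sets and for Gadd45a.

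Rprm codes for Reprimo, a small cytoplasmic protein whose human gene is induced by p53 and which arrests cells at the G2 phase when overproduced. Its signal was 140.9, 77.2, 157.4 and 111.0 on SPI 2, 3, 4 and 5. It was 278.3, 168.4 and 281.7 on GEN 1, 3 and 5, against 285.4, 218.6 and 415.4 on CAS 1, 2 and 3. All 4 SPI arrays lay below every GEN array and every CAS array, with GEN 3 the closest of these. The means were 122 ± 35.3 on SPI (SD, n = 4), 243 ± 64.5 on GEN (SD, n = 3) and 306 ± 100 on CAS (SD, n = 3). SPI differed from CAS by -1.33 ± 0.30 (SE; 95% interval -1.99 to -0.68), with an adjusted p of 0.582 in limma. SPI differed from GEN by -1.01 ± 0.30 (SE; -1.66 to -0.35), with an adjusted p of 0.504 in limma. These values are a description, because Rprm passed the filter only through the diets where it was high. GEN differed from CAS by -0.32 ± 0.32 (SE; -1.02 to 0.38), and by -0.080 without GEN 3 or without CAS 3. Diets that did not overlap in this direction were found for 2.83% of all probe sets in SPI minus CAS and for 4.37% in SPI minus GEN.

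In limma's F test over all 3 diets, 0% of probe sets passed after adjustment and 6.4% before. The adjusted p was 0.575 for Rprm, under the same limit, and 0.799 to 0.985 for the other member probe sets. The SPI signals of Rprm were all under the testing floor of 162, where low values limit how well the size of a difference is known. Without any single array the SPI minus CAS difference lay between -1.55 and -1.09. Marker lists of cell types moved in both directions beside these values. In the lymphocyte list, the fixed symbol Ms4a1 was matched through a synonym to Ms4a2, which is a different gene. Counts and means of that list therefore do not describe lymphocytes alone. Lower on SPI than on CAS were 8 of 8 macrophage genes (list means 8.90 to 9.86 on SPI and 9.20 to 10.42 on CAS), 5 of 6 lymphocyte genes (7.53 to 8.11 and 8.05 to 8.71), 8 of 8 fibroblast genes (10.54 to 11.72 and 11.44 to 12.27), 9 of 10 luminal genes and 4 of 4 skeletal muscle genes. Higher on SPI than on CAS were 12 of 12 proliferation genes (9.18 to 9.49 and 8.93 to 9.30; median log2 difference 0.33), 4 of 4 endothelial genes (median 0.36), 3 of 4 nerve genes (0.43) and 3 of 4 basal epithelial genes (0.15), and 2 of 4 adipocyte genes. Lower on SPI than on GEN were 10 of 10 luminal, 7 of 8 macrophage, 7 of 8 fibroblast, 5 of 6 lymphocyte, 3 of 4 basal, 3 of 4 nerve and 3 of 4 skeletal muscle genes. Higher on SPI than on GEN were 4 of 4 endothelial genes (median 0.44), 3 of 4 adipocyte genes and 8 of 12 proliferation genes. No marker was listed at 0, and the part of these cells, or of proliferation, in the Rprm and Cdkn1a values was not tested.

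Cdkn1a codes for p21, an inhibitor of cyclin-dependent kinases and the most studied target of p53 in growth arrest. It had a bright and a dimmer probe set. The brighter one, 1388674_at, had signals of 1714.3, 4428.0, 5969.9 and 2359.5 on SPI 2, 3, 4 and 5. It had 2914.1, 3467.1 and 2111.1 on GEN 1, 3 and 5, against 2552.7, 1613.8 and 1187.7 on CAS 1, 2 and 3. SPI 3 and SPI 4 were higher than every other array, while SPI 2 and SPI 5 lay within the CAS range, so the diets overlapped. The difference was 0.92 ± 0.38 (SE; 95% interval 0.10 to 1.74) for SPI minus CAS, with an unadjusted p of 0.0299 and an adjusted p of 0.987 in limma. For GEN minus CAS it was 0.71 ± 0.40 (SE; -0.17 to 1.58; adjusted p = 0.825 in limma), and for SPI minus GEN 0.21 ± 0.38 (SE; -0.60 to 1.03).

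The dimmer Cdkn1a probe set, 1387391_at, had 269.1, 338.7, 548.3 and 834.2 on SPI 2, 3, 4 and 5. It had 460.9, 976.9 and 471.9 on GEN 1, 3 and 5, against 454.1, 503.8 and 105.1 on CAS 1, 2 and 3. CAS 3 stood apart from all other arrays and set the CAS mean. The difference was 0.65 ± 0.52 (SE) for SPI minus CAS and 1.05 ± 0.55 (SE) for GEN minus CAS (adjusted p = 0.987 and 0.825 in limma). Without CAS 3 they were -0.08 and 0.32, and those of the brighter probe set were 0.66 and 0.45. SPI 4, which had the highest signal of the brighter probe set, also had the highest actin ratio and the lowest luminal mean (9.19). It was lowest for the basal (9.16), macrophage (8.90) and lymphocyte (7.53) lists too, and highest for the endothelial list (11.50). On the other marker lists it was at neither end. With the actin ratio in the fit, the SPI minus CAS difference of the brighter probe set was 0.84. The part of any cell type in it was not tested.

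The 2 probe sets of Cdkn1a did not rank the arrays alike. Over the 10 arrays their Pearson correlation was 0.54 (permutation p = 0.109, adjusted 0.326 over 6 pairs of probe sets of the same gene) and their Spearman correlation 0.41 (permutation p = 0.251, adjusted 0.502). Without SPI 4 and CAS 3, the arrays farthest from the median, Pearson's r was 0.19.

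Gadd45a codes for a stress sensor that binds PCNA, p21 and the kinase complex of mitosis. Its probe set had 1910.0, 1934.8, 2220.3 and 2876.0 on SPI 2, 3, 4 and 5. On GEN 1, 3 and 5 it had 2385.2, 3318.1 and 2724.6, against 3198.7, 2304.3 and 1434.3 on CAS 1, 2 and 3. CAS 3 was lowest, as for Cdkn1a, and CAS 1 was higher than every SPI array. The mean signal was 2235 ± 450 on SPI (SD, n = 4), 2809 ± 472 on GEN (SD, n = 3) and 2312 ± 882 on CAS (SD, n = 3). The log2 difference was 0.0061 ± 0.24 (SE; 95% interval -0.51 to 0.52) for SPI minus CAS, 0.34 ± 0.25 (SE; -0.21 to 0.89) for GEN minus CAS and -0.34 ± 0.24 (SE; -0.85 to 0.18) for SPI minus GEN. The GEN minus CAS difference was 0.036 without CAS 3, 0.22 without GEN 3 and 0.61 without CAS 1.

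Mdm2, the ubiquitin ligase of p53, had a tested probe set (1384427_at) with 442.6 to 541.7 on SPI, 436.4 to 548.0 on GEN and 365.5 to 557.9 on CAS. The diets overlapped throughout. SPI minus CAS differed by 0.18 ± 0.17 (SE; 95% interval -0.18 to 0.55), GEN minus CAS by 0.20 ± 0.18 (SE; -0.19 to 0.59) and SPI minus GEN by -0.015 ± 0.17 (SE; -0.38 to 0.35). Without CAS 2 the differences from CAS were 0.049 for SPI and 0.064 for GEN, and without CAS 1 they were 0.35 and 0.37. The dim probe set of Mdm2 ran from 70.1 to 188.2 on SPI, from 36.0 to 209.0 on GEN and from 112.3 to 162.0 on CAS.

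Mcl1, a short-lived anti-apoptotic protein, was measured by 2 tested probe sets. The brighter one, 1372520_at, had 4433.4, 4159.3, 4965.8 and 4237.5 on SPI 2, 3, 4 and 5. On GEN 1, 3 and 5 it had 4501.2, 6268.2 and 5580.0, against 4565.0, 6405.0 and 4845.5 on CAS 1, 2 and 3. SPI 4 was the only SPI array above any GEN or CAS array. The difference was -0.23 ± 0.15 (SE; 95% interval -0.55 to 0.09) for SPI minus CAS, 0.051 ± 0.16 (SE; -0.29 to 0.40) for GEN minus CAS and -0.28 ± 0.15 (SE; -0.61 to 0.039) for SPI minus GEN. Without CAS 2 the SPI minus CAS difference was -0.084 and the GEN minus CAS difference 0.20, and without GEN 3 the SPI minus GEN difference was -0.18. The other probe set, 1370141_at, gave -0.10 ± 0.22, 0.32 ± 0.24 and -0.42 ± 0.22 (SE) in the same comparisons, and both had an adjusted p of 0.653 in limma for SPI minus GEN. Without GEN 3 the GEN minus CAS and SPI minus GEN differences of 1370141_at were 0.14 and -0.24. With the actin ratio in the fit, its SPI minus CAS, GEN minus CAS and SPI minus GEN differences were -0.052, 0.15 and -0.21.

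Bcl2l1, the gene of Bcl-xL, had a tested probe set (1370812_at) with 336.0 to 405.8 on SPI, 313.3 to 457.1 on GEN and 376.0 to 406.4 on CAS. Its differences had the narrowest range of the members, with -0.024 ± 0.16 (SE; 95% interval -0.37 to 0.32) for SPI minus CAS, -0.061 ± 0.17 (SE; -0.43 to 0.31) for GEN minus CAS and 0.037 ± 0.16 (SE; -0.31 to 0.38) for SPI minus GEN. Its dim probe sets stayed between 59.8 and 158.7 (1369180_at) and between 3.1 and 41.0 (1370485_a_at). Bcl2, the first known member of the family, was dim on all arrays. Its signals were 82.1, 62.8, 57.3 and 136.3 on SPI 2, 3, 4 and 5, with 125.9, 95.5 and 89.9 on GEN 1, 3 and 5 and 87.5, 101.0 and 147.3 on CAS 1, 2 and 3. The mean log2 signal of Bcl2 was 6.32 on SPI, 6.68 on GEN and 6.77 on CAS, differences that were not tested.

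The probe set that the annotation assigns to both LOC681314 and Bax had 616 ± 74.6 on SPI (SD, n = 4), 527 ± 105 on GEN (SD, n = 3) and 599.8 ± 19.5 on CAS (SD, n = 3). Its difference was 0.033 ± 0.16 (SE) for SPI minus CAS, -0.20 ± 0.17 for GEN minus CAS and 0.24 ± 0.16 for SPI minus GEN. How much of this signal was Bax was not tested.

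**Figure D2:**
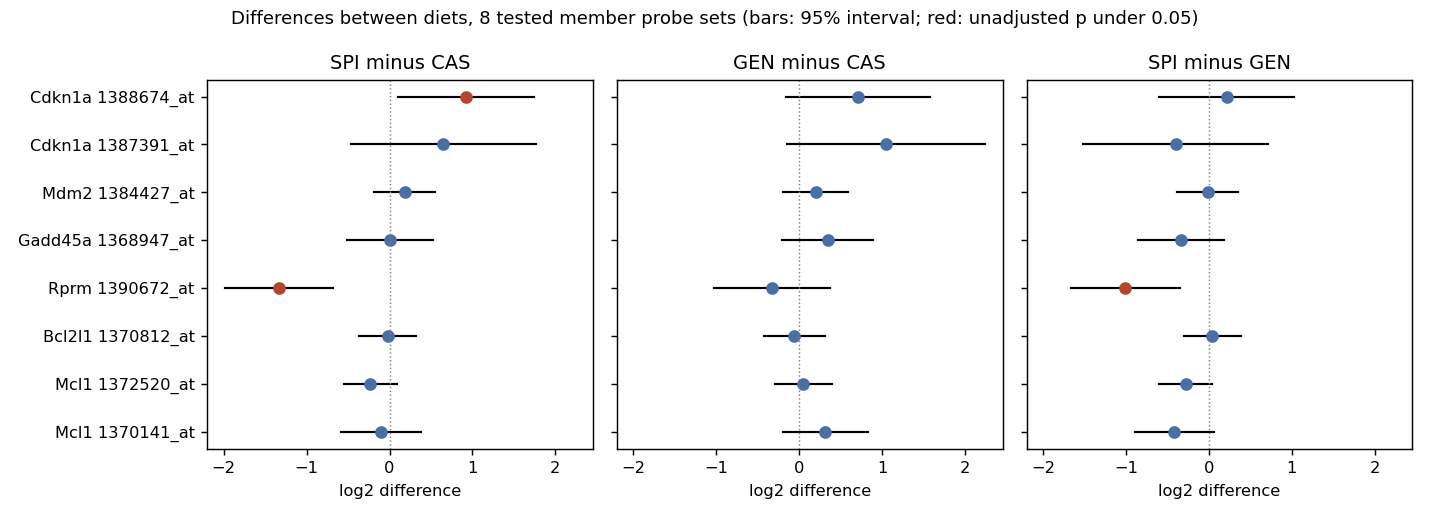
Log2 differences (horizontal axis) of the 8 tested member probe sets for SPI minus CAS, GEN minus CAS and SPI minus GEN; dots are estimates of the limma fit, lines are 95% intervals, and red dots have an unadjusted p under 0.05. Rprm at -1.33 and -1.01 and the brighter Cdkn1a probe set at 0.92 are the red dots, and none had an adjusted p under 0.05.

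No shared movement of the 7 genes across arrays was found, but 10 arrays are too few to show that it is absent. Among 21 pairs of genes, each by its brightest probe set, 0 had a Pearson or Spearman correlation with an adjusted permutation p under 0.05, and 10 pairs were positive and 11 negative. The pair with the smallest p was Cdkn1a and Bcl2, with a Pearson r of -0.69 (permutation p = 0.0254, adjusted 0.533, n = 10) and a Spearman correlation of -0.59 (permutation p = 0.0795, adjusted 0.811). Without SPI 4 and CAS 3 that r was -0.30, where these are the arrays farthest from the median of Cdkn1a, and without any single array it lay between -0.78 and -0.53. With the mean of each diet taken out it was -0.65. For Cdkn1a and Mdm2, target and regulator of p53, r was 0.49 (permutation p = 0.149, adjusted 0.626), with a Spearman correlation of 0.33 (permutation p = 0.353, adjusted 0.811) and 0.36 for r without SPI 4 and CAS 3.

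**Figure D3:**
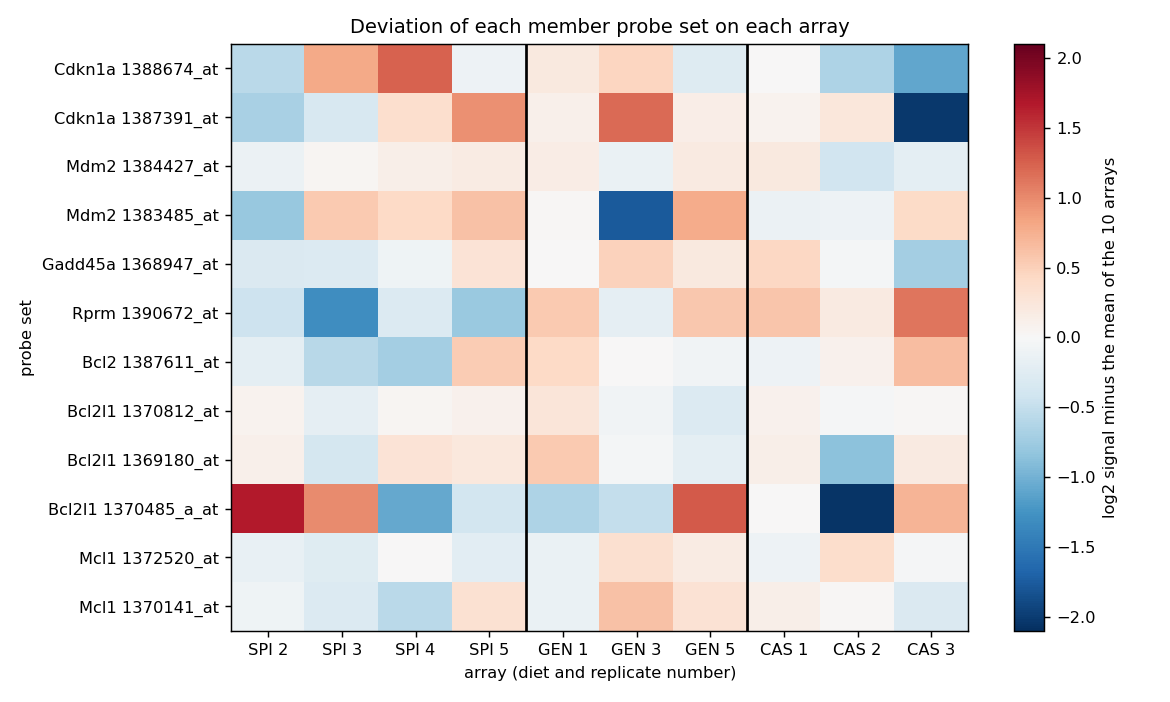
Deviation of log2 signal from the mean of the 10 arrays (colour, red higher and blue lower) for each member probe set (rows) on each array (columns, SPI, GEN and CAS from left to right). Rprm is blue on all 4 SPI arrays, and CAS 3 is blue for both Cdkn1a probe sets and Gadd45a and red for Rprm.

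Other tested genes whose log2 signal followed a member most closely over the 10 arrays were sought among 8064 single-symbol probe sets, and all share the arrays and their scaling. Picking the highest of so many correlations over 10 arrays yields high values by itself. None of these correlations was tested. The brighter Cdkn1a probe set was followed by Myd88 (r = 0.96), an adaptor of Toll-like receptors, Atf4 (0.94), a transcription factor of the stress response to amino acid lack, and Dnaja1 (0.92), a co-chaperone. Gadd45a was followed by Glul (0.96), the glutamine synthetase, Fosl1 (0.94) and Nars1 (0.93). Rprm was followed by Reg3b (0.94), a secreted lectin, Mrpl49 (0.90) and Rcn2 (0.89). The closest for Mdm2 was Coq4 (0.87), for Mcl1 Tspan6 (0.92) and for Bcl2l1 Snrpa1 (0.86).

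The wider pathways were described by 2 lists chosen from general knowledge. Of 43 genes of the p53 pathway, 27 had a probe set of their own and 24 were tested, by the brightest probe set of each. For SPI minus CAS, 0 were higher and 0 lower at an unadjusted p under 0.05, against 1.53% and 3.29% of all probe sets, and the list median was -0.046. For GEN minus CAS, 0 were higher and 2 lower (background 2.7% and 3.19%; median -0.037), and for SPI minus GEN 2 were higher and 1 lower (background 3.7% and 4.25%; median 0.056). These counts moved with single arrays: without SPI 2, 3 were higher for SPI minus CAS, and without CAS 1, 4 were lower and 2 higher for GEN minus CAS. In limma, 0 passed after adjustment in any comparison.

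Dusp1, a phosphatase of stress-activated kinases, had the smallest p of that list for GEN minus CAS. Its signal was 6790 ± 764 on GEN (SD, n = 3) against 9606 ± 1116 on CAS (SD, n = 3), a difference of -0.50 ± 0.17 (SE; adjusted p = 0.825 in limma), and GEN lay below CAS on all arrays. Diets apart in this direction were found for 5.41% of all probe sets. On SPI it was 9338 ± 1803 (SD, n = 4), 0.44 ± 0.16 (SE) above GEN. Of the Gadd45 family, Gadd45g had 3231 ± 768 on SPI (SD, n = 4) against 2102 ± 289 on GEN (SD, n = 3), a difference of 0.60 ± 0.23 (SE; adjusted p = 0.563 in limma). Perp, a p53 target of desmosomes, had 262 ± 95.7 on SPI (SD, n = 4) against 485 ± 223 on GEN (SD, n = 3), a difference of -0.85 ± 0.38 (SE; adjusted p = 0.614 in limma), and of -0.55 without SPI 4 or without GEN 5. In that comparison 10 of 10 luminal and 3 of 4 basal markers were lower too, as were most genes of several other lists, while 4 of 4 endothelial genes were higher. The part of any cell type in the Perp difference was not tested. Trim32 and Xpc, a DNA repair gene, stood at -0.56 ± 0.26 and -0.37 ± 0.17 for GEN minus CAS; that of Trim32 was -0.27 without CAS 3. For SPI minus CAS the smallest p-values belonged to Gadd45b (0.29 ± 0.15), the kinase gene Plk2 (-0.26 ± 0.15) and Igfbp3 (0.37 ± 0.24), none under 0.05 before adjustment. The Igfbp3 difference was 0.15 without CAS 3. The CDK inhibitors Cdkn1b and Cdkn1c, related to Cdkn1a and picked after their values were seen, stood at 0.077 ± 0.15 and 0.30 ± 0.23 for SPI minus CAS.

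Of 45 genes of the apoptosis machinery, 40 had a probe set of their own and 32 were tested. For SPI minus CAS, 0 were higher and 1 lower at an unadjusted p under 0.05, for GEN minus CAS 0 and 1, and for SPI minus GEN 1 and 0, with list medians of -0.0056, -0.0039 and 0.011. The backgrounds are those given for the p53 list. Bcl2a1, an anti-apoptotic relative of Bcl2 that is expressed in leukocytes, had 381 ± 98.1 on SPI (SD, n = 4) against 673 ± 373 on CAS (SD, n = 3), a difference of -0.72 ± 0.33 (SE; adjusted p = 0.987 in limma). Without CAS 1 it was -0.30, and the unadjusted p was not under 0.05 with no filter, quantile normalization, median centring, the replicate block and several other settings. The macrophage markers and most genes of the lymphocyte list, which includes Ms4a2, were lower in the same comparison. Their part in it was not tested. Tnfrsf1a, the main receptor of tumour necrosis factor, differed by -0.37 ± 0.17 (SE) for GEN minus CAS and by 0.35 ± 0.16 for SPI minus GEN. The first was -0.24 without CAS 3 and the second 0.21 without GEN 3. Dffa, the inhibitor of the apoptotic nuclease, stood at -0.31 ± 0.18 for SPI minus CAS and -0.42 ± 0.20 for GEN minus CAS. The first was -0.20 without CAS 3 and the second -0.25 with the replicate block. Tradd, an adaptor of death receptors, stood at -0.36 ± 0.21 for SPI minus CAS, and Bnip3l, a mitophagy receptor, at -0.26 ± 0.14 for GEN minus CAS. Without CAS 3 these were -0.14 and -0.13. Cflar, which blocks caspase-8, and the kinase gene Ripk1 stood at 0.41 ± 0.24 and 0.37 ± 0.23 for SPI minus GEN. Cflar was 0.14 with the replicate block, and Ripk1 was 0.22 without GEN 5. In limma, 0 of the 32 passed after adjustment in any comparison.

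**Figure D4:**
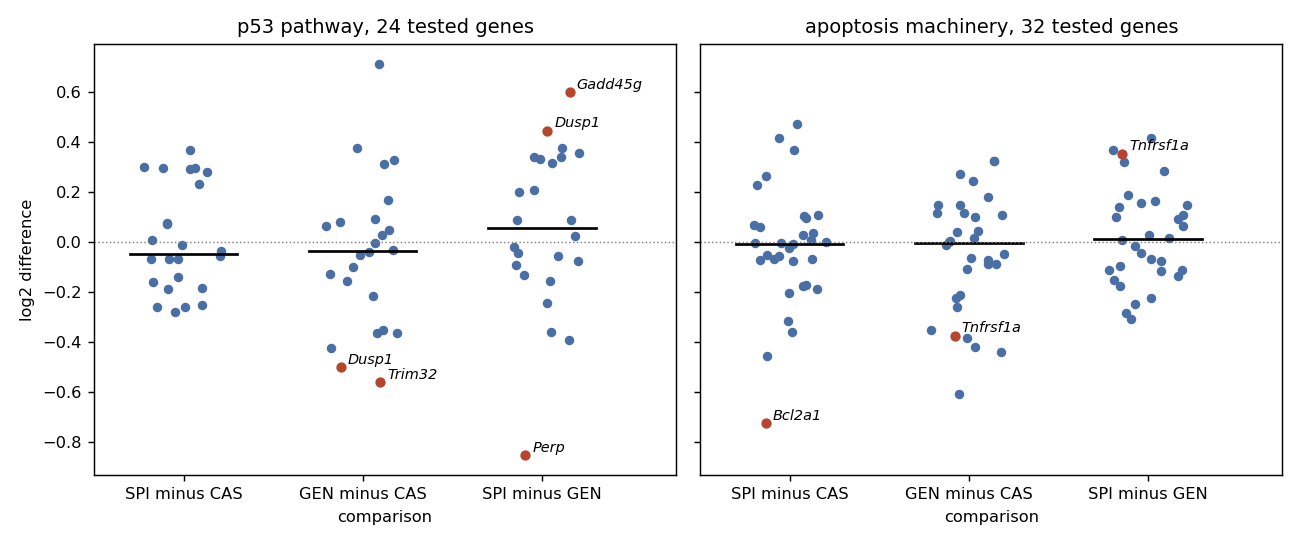
Log2 differences (vertical axis) of the tested genes of the p53 pathway list (left, 24 genes) and of the apoptosis list (right, 32 genes) for SPI minus CAS, GEN minus CAS and SPI minus GEN; each point is a gene, spread sideways at random, and black bars are list medians. Genes with an unadjusted p under 0.05 are red and named, and the medians lie between -0.046 and 0.056.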

How the data were processed

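The values the authors deposited are linear MAS5 signal intensities, 1 for each probe set and array. MAS5 is named in the submitters' processing notes, with no version. The deposited intensity values looked scaled per array, with a mean of 500.1 on each after trimming 2% at both ends, so differences in total RNA are not visible, and no calls of presence were used. Here 57 control probe sets were left out, signals under 1 (0.0637% of values) were set to 1, log2 was taken, and the lowest 40% in mean log2 signal were left out. Symbols came from the platform annotation (12783 probe sets with 1 symbol, 312 with several and 2771 with none). Diets were compared with limma 3.58.1 in R 4.3.3 (lmFit, eBayes with trend; 7 residual degrees of freedom) on all 10 arrays without a block, with Benjamini-Hochberg adjustment over 9520 probe sets. Precision is limited by how few arrays there are. The fit was tested on simulated data. Permutation tests of correlations used 100000 resamples.

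All probe sets of the 8 genes are named. From each pathway list, genes at an unadjusted p under 0.01 are named, or the 3 with the smallest p where there were fewer than 3. For likeness, the 3 highest correlations per gene were taken. The genes, lists and tests were chosen with earlier results of these data known. A planned contrast of Bax and Bcl2 was not run, because Bax had no probe set of its own.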

Additional observations from a re-analysis of the deposited data

Results flagged for a closer look

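Among the 13 probe sets examined, 2 had an SPI array set apart from the other 3 by Dixon's ratio of gap to range, taken on log2 signals, whose critical value for 4 arrays is 0.829; about 1 group in 20 would be marked by chance. The dim Mdm2 probe set 1383485_at had 70.1 on SPI 2 and 163.9 to 188.2 on SPI 3, 4 and 5, a ratio of 0.860 on the log2 scale. The tested Bcl2l1 probe set 1370812_at had 336.0 on SPI 3 and 393.0 to 405.8 on SPI 2, 4 and 5, a ratio of 0.830 on the log2 scale, just over the critical value. Without SPI 3 its SPI minus CAS difference was 0.040 instead of -0.024. The cause of either deviation was not tested.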

How the results depend on the processing

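With each alternative tried, 0 member probe sets passed an adjusted p of 0.05, and 0 correlations among members did under the scalings, floors and left-out arrays tried for them (chosen after seeing the data). The Rprm difference for SPI minus CAS ranged from -1.55 to -1.09, with an adjusted p in limma from 0.160 to 0.99993; with the lowest 60% left out Rprm was not tested.

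Members at an unadjusted p under 0.05 for SPI minus CAS numbered 3 with quantile normalization and 3 with the replicate block, against 2 in the main fit. There was 1 with the lowest 60% left out and 1 with the plain test per probe set. Without single arrays there were 1 to 2 (1 without SPI 3, SPI 4, CAS 2 or CAS 3). For GEN minus CAS there was 1 with only the compared diets in the fit, 1 with the actin ratio as covariate, and 0 to 3 without single arrays (3 without CAS 1, 1 without CAS 2). For SPI minus GEN there were 0 with the lowest 60% left out, 3 with array weights, and 1 to 3 without single arrays (3 without GEN 1, 2 without SPI 5). Member counts that include Rprm are a description, since it passed the filter only through the diets where it was high. Counts over all probe sets moved with these settings too, as given below, so the member counts are no result about the members. Over all probe sets, adjusted calls for SPI minus CAS were 0 to 2 without single arrays (2 without SPI 2). For GEN minus CAS they were 2 with the lowest 60% left out, 2 with array weights and 0 to 1 without single arrays (1 without CAS 1). For SPI minus GEN they were 2 with only the compared diets, 2 with array weights and 0 to 1 without single arrays (1 without SPI 2, GEN 5, CAS 2 or CAS 3). The F test gave 0 to 2 without single arrays (2 without SPI 2, 1 without GEN 5 or CAS 2). Unadjusted counts of 459, 561 and 757 became 776, 884 and 1213 with no filter, and 298 (SPI minus CAS) and 498 (SPI minus GEN) with the lowest 60% left out. The last was 1188 with array weights. Without single arrays the 3 counts ran from 296 to 726, 354 to 752 and 487 to 1091.

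No pairing by replicate number was seen. Deviations of 6 same-numbered pairs correlated at -0.183 to 0.155, against -0.396 to 0.302 for other pairs, and 0 of 9 arrays correlated best with their own number. So few pairs cannot show that an effect shared by replicate number is absent. With the replicate block the unadjusted counts were 270 for SPI minus CAS and 286 for SPI minus GEN. Those of members were 3 for SPI minus CAS and 2 for SPI minus GEN, and 0 adjusted calls were made.

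The block gave 0.063 for Mdm2 1384427_at in GEN minus CAS, and -0.38 (SPI minus CAS) and -0.50 (SPI minus GEN) for Mcl1 1372520_at.

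Over all alternatives tried for the pathway lists (chosen after seeing the data), p53 pathway genes at an unadjusted p under 0.05 numbered 0 to 3 higher and 0 to 1 lower for SPI minus CAS, 0 to 2 and 1 to 4 for GEN minus CAS, and 1 to 2 and 0 to 2 for SPI minus GEN. Apoptosis genes numbered 0 to 1 and 0 to 2, 0 and 0 to 3, and 0 to 1 and 0 to 1. Counts over all probe sets moved across the alternatives too, as given above.

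Differences near 0 changed sign. For SPI minus CAS, Gadd45a was -0.011 with quantile normalization, -0.13 with array weights and -0.0046 with the replicate block, and -0.30 to 0.28 without single arrays. The tested Bcl2l1 probe set was 0.029 with quantile normalization, 0.048 with median centring, 0.067 with the replicate block and -0.051 to 0.040 without single arrays. Without single arrays, Cdkn1a 1387391_at was -0.082 to 1.05, Mcl1 1370141_at -0.26 to 0.034 and the probe set shared by LOC681314 and Bax -0.047 to 0.082. For GEN minus CAS, Mcl1 1372520_at was -0.034 with quantile normalization and -0.057 to 0.20 without single arrays, and Bcl2l1 -0.21 to 0.066. For SPI minus GEN, Cdkn1a 1388674_at was -0.11 with the actin ratio and -0.084 to 0.52 without single arrays. Mdm2 was 0.046 with median centring, 0.13 with the replicate block and -0.12 to 0.044 without single arrays. Bcl2l1 was -0.011 with the actin ratio and -0.090 to 0.18 without single arrays. The causes were not tested. Dim probe sets had no test, and signal over background limits what can be said of Bcl2.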
